A study of Mus musculus with 2 samples.

Results

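The cells described here are Plet1-positive conventional dendritic cells of the cDC1 kind from mouse lung, 493 of the 1651 cDC1 cells in which Plet1 was compared (29.9%, exact Clopper-Pearson 95% interval 27.7 to 32.1%). Their working name also calls them rich in Cd207. They were chosen on measured values in the library of cells sorted as cDC1. A cell barcode entered with at least 500 genes, at least 1000 unique molecular identifiers (UMIs, tags that count captured RNA molecules) and at most 10% mitochondrial UMIs. It also needed at least 1 UMI of Xcr1 or Clec9a, fewer than 3 of Fscn1, fewer than 2 of Ccr7, fewer than 2 of Il12b and fewer than 4 over 6 cell cycle genes. Of 2939 deposited barcodes 2574 passed the quality limits and 1651 met all conditions. Members carried 2 or more Plet1 UMIs, and they were compared with the 935 cells at 0. Between them stood 223 cells with 1 Plet1 UMI, just outside the limit, and 88 members had exactly 2, just inside it.

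Lungs came from C57BL/6 mice between 8 and 10 weeks of age, and droplet RNA sequencing of single cells gave 2 libraries with 5984 barcodes in all. One was sorted as XCR1-positive cDC1 and the other as CD172a-positive cDC2, after release of the cells with dispase, and no genetic change or treatment is named for either. How many mice were pooled per library is not stated in the labels. Members and comparison cells came from the same library, so there was no replicate and no test. All intervals are 95% counting intervals, which cover counting error only, and a 2-fold ratio is a rule of size.

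cDC1 cells take up dying cells and present their antigens to CD8 T cells, and in the lung many lie next to the airway epithelium. Plet1 encodes a GPI-anchored surface protein known from placenta and epithelial progenitors. Cd207 encodes langerin, the lectin that forms Birbeck granules in Langerhans cells and is also carried by cDC1 of lung and skin. Csf2rb encodes the common beta chain of the receptors for GM-CSF, IL-3 and IL-5, and Csf2rb2 a second, IL-3-specific beta chain found in mice; GM-CSF signals through JAK2 and STAT5.

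Plet1 lies on the plus strand of chromosome 9 at 50494525-50505482, Cd207 on the minus strand of chromosome 6 at 83671215-83677857, and Sdcbp2 on the plus strand of chromosome 2 at 151572622-151590005 (GRCm38, GENCODE vM21, all protein-coding). Csf2rb2 (minus strand, 78282507-78305721) and Csf2rb (plus strand, 78325752-78353847) neighbour each other on chromosome 15. The 250 bases before the RefSeq start of the gene that chose the members and of 3 genes that were higher in them are shown to let their upstream sequence be compared. The sequences are RefSeq's on GRCm38.p6, 5′ to 3′ on the gene's strand, from chr9:50494275-50494524, chr6:83677858-83678107, chr2:151572373-151572622 and chr15:78305722-78305971. Capitals mark matches, on either strand, to 5 short motifs given after them.
Plet1: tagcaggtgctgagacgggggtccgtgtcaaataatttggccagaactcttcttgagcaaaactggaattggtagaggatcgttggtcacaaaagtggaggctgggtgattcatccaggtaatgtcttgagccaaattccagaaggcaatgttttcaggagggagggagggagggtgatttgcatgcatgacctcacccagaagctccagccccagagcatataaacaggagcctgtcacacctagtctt
Cd207: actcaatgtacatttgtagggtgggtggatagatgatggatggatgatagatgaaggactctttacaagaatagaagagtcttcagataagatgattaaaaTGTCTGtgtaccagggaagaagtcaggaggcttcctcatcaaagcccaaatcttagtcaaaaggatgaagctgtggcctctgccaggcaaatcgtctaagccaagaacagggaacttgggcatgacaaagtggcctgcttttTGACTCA
Sdcbp2: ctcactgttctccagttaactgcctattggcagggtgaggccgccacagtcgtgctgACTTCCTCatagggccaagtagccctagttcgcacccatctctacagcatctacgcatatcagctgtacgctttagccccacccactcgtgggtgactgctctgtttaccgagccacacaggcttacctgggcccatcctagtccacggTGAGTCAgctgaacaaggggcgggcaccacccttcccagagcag
Csf2rb2: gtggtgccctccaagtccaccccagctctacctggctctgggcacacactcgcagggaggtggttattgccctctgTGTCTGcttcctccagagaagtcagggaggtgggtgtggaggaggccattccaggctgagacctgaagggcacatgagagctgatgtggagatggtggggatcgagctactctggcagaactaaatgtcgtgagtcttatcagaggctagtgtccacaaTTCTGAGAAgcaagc

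The motifs were TTCNNNGAA (a STAT-type element), CAGACA (SMAD), GAGGAAGT (PU.1), TGACTCA (AP-1) and the heat shock element (GAA, TTC and GAA, or TTC, GAA and TTC, each joined by NN). They were chosen with the values known. No match to any of the 5 stood in the Plet1 window. Cd207 held TGACTCA beginning 7 bases before the start and the reverse complement of CAGACA. Sdcbp2 held the reverse complements of TGACTCA, beginning 44 bases before the start, and of GAGGAAGT. Csf2rb2 held TTCNNNGAA beginning 15 bases before the start and the reverse complement of CAGACA. Of the 31 genes that were at least 2-fold higher in members, 22 had 24 windows in the RefSeq table. Among these windows TTCNNNGAA occurred in 4 (16.7%, against 7.02% of all 32851 windows), CAGACA in 5 (20.8% against 17.1%), GAGGAAGT in 3 (12.5% against 2.44%), TGACTCA in 4 (16.7% against 4.46%) and the heat shock element in 0 (against 0.466%). A match is a string of letters and not a binding site.

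Members carried a median of 7 Plet1 UMIs (quartiles 3 and 16, highest 76), and Plet1 reached 848 CPM in their summed RNA. CPM is the usual scaling of a gene's UMIs to the total UMIs, both summed over the cells of a set. The median cell held 13285 UMIs and 2558 genes among members, 12642 and 2596 at Plet1 = 1, and 12013 and 2577 at Plet1 = 0. Median mitochondrial shares were 3.91%, 3.88% and 3.95%. Members were thus somewhat deeper, and shares of cells are given below after each cell was thinned to 5000 UMIs. The 2 libraries shared 6 barcodes, and 0 of these were members.

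Both sets carried the genes of the cDC1 kind. The 10 cDC1 markers summed to 3163 CPM in members and 3421 CPM at Plet1 = 0, with 0 of 10 at 2-fold higher and 1 (Tlr3) at 2-fold lower. Irf8, the transcription factor that specifies cDC1, stood at 1252 and 1094 CPM. Xcr1 (235 and 278 CPM) and Clec9a (140 and 157 CPM) are among these 10 markers. They were part of the selection, so their presence in both sets was fixed in advance. Alveolar macrophages are another lung cell that carries Plet1. Their 14 other markers summed to 22.3 CPM in members and 29.4 CPM at Plet1 = 0, Krt79 was at 0 in both, and Chil3 had 15 and 12 UMIs.

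Of the working name's markers, Cd207, Sdcbp2 and Csf2rb2 were at least 2-fold higher in members and Havcr1 was not. Langerin's gene Cd207 stood at 808 CPM in members and 291 CPM at Plet1 = 0, a ratio of 2.77 (2.66 to 2.90). A member's median was 4 Cd207 UMIs with a highest of 127, against 1 and 103 at Plet1 = 0. The sets overlapped over the whole range: 112 members (22.7%) had no Cd207 UMI. Sdcbp2, which encodes the PDZ protein syntenin-2, had 99.6 against 35.9 CPM and a ratio of 2.77 (2.45 to 3.14). Havcr1, the gene of the phosphatidylserine receptor TIM-1, had 25.9 against 17.2 CPM and a ratio of 1.505 (1.22 to 1.85).

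Over the whole transcriptome few genes reached the rule of size. Of 6160 genes measured at 10 CPM or more in 1 of the sets, the genes of the selection left out, 31 (0.503%) were at least 2-fold higher in members and 69 (1.12%) at least 2-fold lower. The median log2 ratio was -0.09. The counts for gene lists below are to be read beside these shares, at which a short list would hold few or no called genes. Without the cell with most UMIs of the gene in each set, 31 of the 31 and 68 of the 69 kept their 2-fold ratio. The exception was Retnla, with 132 of its 139 UMIs at Plet1 = 0 in 1 cell.

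**Figure D1:**
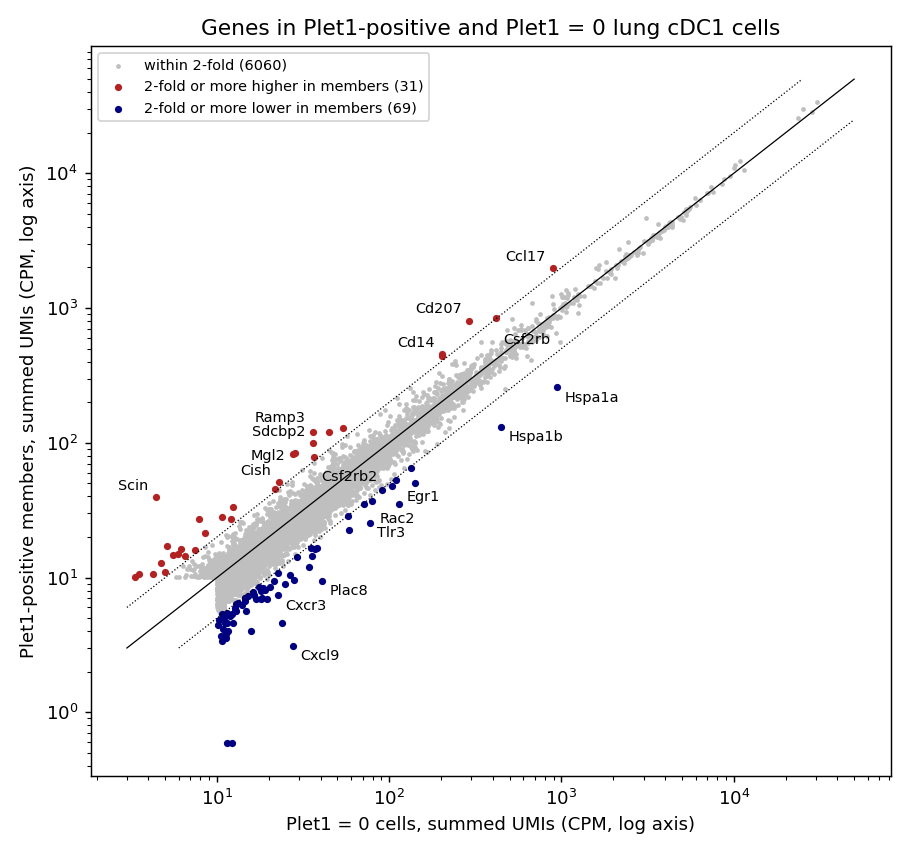
Each point is 1 of 6160 genes, with its CPM in the 935 Plet1 = 0 cells on the horizontal and in the 493 members on the vertical axis (both log axes). The solid line marks equal values and dotted lines 2-fold ratios; 31 genes lie above and 69 below, with Hspa1a (258 against 946 CPM) the most abundant of those below.

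Among genes at 50 CPM or more, the highest ratio belonged to Ramp3, an accessory protein of the calcitonin-family receptors, with 120 against 36.0 CPM (3.32, 2.94 to 3.74). Mgl2, a C-type lectin, had 82.1 against 27.5 CPM and a ratio of 2.99 (2.60 to 3.44). Dcstamp, the fusion protein of osteoclasts and dendritic cells, had 120 against 44.8 CPM (2.67, 2.39 to 2.99). Dst, a cytoskeletal linker, had a ratio of 2.40 (2.16 to 2.67) and Zmynd15 one of 2.99 (2.60 to 3.44). Cd14, the GPI-anchored co-receptor for lipopolysaccharide, stood at 457 against 202 CPM (2.27, 2.15 to 2.39), and at a ratio of 1.96 without cells holding a Plac8, Cxcl9 or Ighm UMI. Il1r2, the decoy receptor for IL-1, just missed the rule with 113 against 56.8 CPM (1.99, 1.79 to 2.21).

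The highest ratio among all 31 belonged to Scin, which encodes the actin-severing protein scinderin. It had 39.6 against 4.41 CPM, a ratio of 8.99 (6.62 to 12.4). Its 268 UMIs lay in 76 of the 493 members, and its 50 UMIs at Plet1 = 0 in 31 of 935 cells. Scin was thus absent from the counts of most members. Flrt3, Tead1, Rhoc, Gpr55 and Stat4 were also among the 31, with ratios from 2.26 (Stat4) to 3.49 (Flrt3).

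Mgl2 is a marker of cDC2, and several other genes of this group were abundant in the cDC2 library as well. After thinning, Mgl2 was found in 18.8% of members, 6.3% of Plet1 = 0 cells and 85.6% of cDC2-library cells without Xcr1 or Clec9a UMIs. Ramp3 was found in 34.1%, 12.6% and 36.8%, and Il1r2 in 34.5%, 22.3% and 55.9%. The 10 cDC2 markers summed to 113 CPM in members and 62.0 CPM at Plet1 = 0, and Mgl2 made 82.1 CPM of the members' sum. Of a list of 20 cDC2 identity genes 5 were measured, with 1 higher (Mgl2), 1 lower (Clec4a2) and 3 within 2-fold. The lectin gene Clec4a2 had 3.55 CPM in members and 11.3 CPM at Plet1 = 0, 3.18-fold lower (2.05 to 5.15). Cd209a, a defining cDC2 marker, had 20.1 and 21.8 CPM, and Cx3cr1, Cd33 and Clec4a4 were at 0 in members.

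Among the GM-CSF receptor genes and their signalling, the beta chains and the STAT5 target Cish were higher and the rest were not. Csf2rb stood at 840 CPM in members and 415 CPM at Plet1 = 0, a ratio of 2.02 (1.95 to 2.10). Its median was 9 UMIs per member and 3 per Plet1 = 0 cell. Csf2rb2 had 77.8 against 36.7 CPM (2.12, 1.86 to 2.42). The 2 genes are near-identical copies, so reads may be split between them. Cish, a feedback inhibitor of cytokine signalling, had 51.0 against 22.8 CPM (2.23, 1.90 to 2.63).

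Over this list 3 of 18 measured genes (26 listed) were higher and 0 lower, with a median log2 ratio of 0.05. The alpha chain Csf2ra had a ratio of 1.03 (0.972 to 1.10), Jak2 1.32 (1.25 to 1.41), Stat5a 1.04 (0.906 to 1.20) and Socs3 0.986 (0.912 to 1.06). The 3 ratios stood close to the limit. Without cells of 10 or more Hspa1a and Hspa1b UMIs, Csf2rb had 1.80, Csf2rb2 1.88 and Cish 1.94, so 0 of 18 were called. The same count of 0 was found without cells holding a Plac8, Cxcl9 or Ighm UMI, and 1 (Cish) was called when cells at Plet1 = 1 joined the comparison set.

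Chemokines split in both directions. Ccl17, a ligand of CCR4 that attracts T cells, was higher in members, with 1978 against 894 CPM (2.21, 2.16 to 2.27). A member carried a median of 8 Ccl17 UMIs with a highest of 323, and a Plet1 = 0 cell a median of 1 with a highest of 194. Ccl22, the other CCR4 ligand, had a ratio of 1.19 (1.14 to 1.24). Of 12 measured chemokines 1 was higher and 5 were lower, namely Cxcl9, Cxcl10, Cxcl2, Ccl3 and Ccl2.

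The lower chemokines came from few cells. Cxcl9, a ligand of CXCR3 induced by interferon-gamma, had 3.10 against 27.5 CPM, 8.86-fold lower in members (5.70 to 14.5). Its 312 UMIs at Plet1 = 0 lay in 54 cells, with 89 in the highest. Cxcl10 had 4 UMIs in members and 129 at Plet1 = 0, of which 53 were in 1 cell. Before thinning, Cxcl9 was found in 3.04% of members and 5.78% of Plet1 = 0 cells, Cxcl10 in 0.609% and 2.57%, and Ccl3 in 5.27% and 7.70%. Ccl2 (7.30% and 7.27%) and Cxcl2 (2.64% and 2.25%) were not found in a smaller share of members. Of the 122 Cxcl2 UMIs at Plet1 = 0, 53 were in 1 cell. The Ccl17 ratio fell below 2-fold, to 1.83, without the cells rich in Hspa1a and Hspa1b, and to 1.60 without those holding a Plac8, Cxcl9 or Ighm UMI.

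Most cDC1 identity genes stayed within 2-fold, and 3 of 20 measured were lower. Tlr3, the endosomal sensor of double-stranded RNA that is characteristic of cDC1, had 25.6 CPM in members and 77.0 CPM at Plet1 = 0, 3.01-fold lower (2.56 to 3.57). After thinning, 9.6% of members (7.1 to 12.6%) and 27.5% of Plet1 = 0 cells (24.6 to 30.5%) held a Tlr3 UMI. The share was 0.9% in cDC2-library cells without Xcr1 or Clec9a. Cxcr3, the receptor for Cxcl9 and Cxcl10, was 3.08-fold lower (2.27 to 4.25) and Snx22 2.33-fold lower (1.73 to 3.195).

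Batf3, the cDC1 transcription factor, was 1.58-fold lower (1.38 to 1.80) and Naaa 1.61-fold lower (1.54 to 1.68), both within 2-fold. Itgae, the CD103 integrin chain, had a ratio of 1.27 (1.20 to 1.35) and Irf8 one of 1.14 (1.11 to 1.18). The list's median log2 ratio was -0.25 beside -0.09 over all genes. Tlr3 kept a 2-fold lower value under all 11 alternatives that were tried on its ratio, from 2.76 to 3.88.

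**Figure D2:**
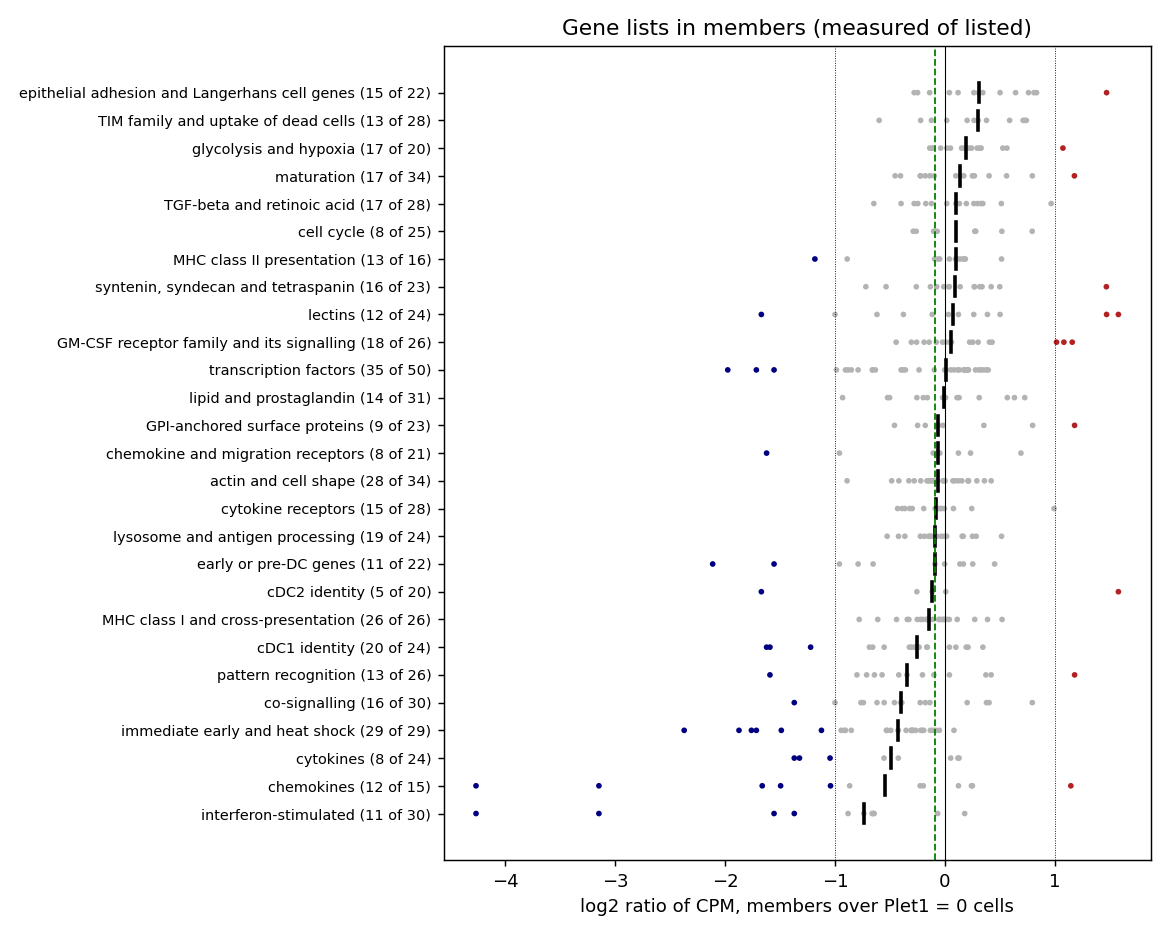
Each row is a gene list with its measured and listed numbers, and each point a gene at its log2 ratio of CPM, members over Plet1 = 0 cells (red at 2-fold higher, blue at 2-fold lower). The list of the 5 markers is not drawn (4 measured, median 1.28). Black bars are the medians of the lists drawn, from 0.31 for epithelial adhesion and Langerhans cell genes to -0.74 for interferon-stimulated genes, and the green dashed line is the median of all 6160 genes (-0.09).

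Of 15 measured genes shared with epithelium and Langerhans cells, 1 (Cd207) was 2-fold higher, 0 were lower and 14 lay within 2-fold, and the median log2 ratio was 0.31. Epcam, the epithelial adhesion molecule that Langerhans cells carry too, had 194 against 114 CPM (1.69, 1.57 to 1.83). Spint1, a serine protease inhibitor, had a ratio of 1.78 (1.58 to 2.01) and the claudin Cldn7 one of 1.75 (1.43 to 2.15). Below 1 were the integrin Itgb7 at 0.824 (0.779 to 0.871) and Cd24a at 0.842 (0.811 to 0.875), while the interval of the catenin Ctnnb1 included 1 (0.909, 0.812 to 1.02). Sftpc, of alveolar epithelium, stood at 10.8 and 12.95 CPM, and the club cell gene Scgb1a1 at 46.7 and 86.7 CPM. Of the 984 Scgb1a1 UMIs at Plet1 = 0, 221 were in 1 cell. Without the highest cell of each set Scgb1a1 was 1.51-fold lower in members.

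For the receptors of dying cells, 0 of 13 measured genes passed 2-fold, beside 0.503% higher and 1.12% lower over all genes. Timd4, the phosphatidylserine receptor TIM-4, had 404 against 242 CPM (1.67, 1.59 to 1.76). The scavenger receptor Cd36 had a ratio of 1.66 (1.57 to 1.75) and Havcr2, which encodes TIM-3, one of 1.30 (1.22 to 1.39). In the other direction, the scavenger receptor Scarb1 was the lowest of the list at 0.661, and the list's median log2 ratio was 0.30. In the TGF-beta and retinoic acid list 0 of 17 passed, with Lrrc32, the GARP protein that tethers latent TGF-beta, the highest at 1.96 (1.67 to 2.30). Smad7 was the lowest at 0.639, and the median log2 ratio was 0.10.

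In MHC class I presentation 0 of 26 genes passed, and in MHC class II presentation 0 of 13 were higher and 1 was lower. The latter was March1, the ubiquitin ligase that removes MHC class II from the surface, with 16.7 against 37.9 CPM (2.27-fold lower, 1.84 to 2.82). Ciita, the transactivator of MHC class II genes, had 48.5 against 89.7 CPM (1.85-fold lower, 1.63 to 2.10). The immunoproteasome subunit Psmb9 was 1.53-fold lower (1.42 to 1.64), and Rab32, a small GTPase, 1.72-fold lower (1.48 to 2.00). H2-Ab1 had a ratio of 1.13 (1.12 to 1.14), and Cst3, the protease inhibitor cystatin C, one of 1.19 (1.18 to 1.20). Of the maturation genes 1 of 17 was higher, Stat4 at 2.26 (1.81 to 2.84; 1.86 without the cells rich in Hspa1a and Hspa1b), and the costimulatory Cd80 had 1.74 (1.54 to 1.96). In lysosome (19), lipid (14), cytokine receptor (15), actin (28) and cell cycle (8) lists, 0 measured genes passed in either direction. Over all 6160 genes 0.503% were higher and 1.12% lower, so a count of 0 in a list this short says little about it. The selection had removed cells at the cell cycle, Fscn1, Ccr7 and Il12b limits from both sets, and its genes from the lists. The cell cycle and maturation counts were therefore limited in advance by the selection.

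Of 29 measured heat shock and immediate early genes 6 were 2-fold lower and 0 higher, with a median log2 ratio of -0.42. Hspa1a, an inducible HSP70 chaperone, had 258 CPM in members and 946 CPM at Plet1 = 0, 3.66-fold lower (3.48 to 3.85). Its near-identical copy Hspa1b was 3.39-fold lower (3.15 to 3.64). Their 250 upstream bases are identical at 247 positions, and reads may be split between them. Dnajb1, an HSP40 partner, was 2.80-fold lower (2.49 to 3.16), and the early growth response genes Egr1 and Egr3 were 3.28-fold (2.86 to 3.79) and 2.18-fold (1.92 to 2.47) lower.

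These UMIs were concentrated in some cells. Most cells of both sets had no Hspa1a UMI (61.3% of members and 52.7% at Plet1 = 0), and the highest cells had 174 and 205. Cells with 10 or more Hspa1a and Hspa1b UMIs were 51 of 493 members (10.3%) and 229 of 935 Plet1 = 0 cells (24.5%). Without them, 28 genes were higher and 37 lower, of which 25 and 29 were among the 31 and 69. Egr1 was then still 3.10-fold lower and Tlr3 2.76-fold lower, while Dnajb1 was 1.34-fold lower and 2 of 27 measured genes of the list were called lower. Whether the dissociation or the state of the cells moved with these genes was not tested.

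Of 11 measured interferon-stimulated genes 4 were 2-fold lower (Cxcl9, Cxcl10, Irf7 and Mx1), 0 were higher and 7 lay within 2-fold, with a median log2 ratio of -0.74. Stat2 had a ratio of 1.13 (1.02 to 1.26) and Bst2 one of 0.956 (0.855 to 1.07). Without cells holding a Plac8, Cxcl9 or Ighm UMI, 1 of 7 measured was lower, a setting that removes Cxcl9 by its construction. Mx1, an antiviral GTPase, had 7.09 against 18.3 CPM (2.58-fold lower, 1.88 to 3.62). Among cytokines 3 of 8 were lower, with the costimulatory ligand Tnfsf9 at 22.6 against 58.4 CPM (2.58-fold, 2.16 to 3.10), Tnf 2.06-fold (1.64 to 2.62) and Il16 2.50-fold (1.68 to 3.83). Il1b had a ratio of 1.09 (1.05 to 1.12).

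Of 11 measured genes of early dendritic cells or their precursors, 2 were lower (Plac8 and Irf7) and 0 higher, and the median log2 ratio was -0.09, as over all genes. Ifitm2 had a ratio of 1.37 (1.27 to 1.47), Kit, the stem cell factor receptor, 1.19 (1.10 to 1.30) and Siglech 1.12 (0.883 to 1.43). Plac8, found in precursors, had 9.45 against 40.9 CPM (4.32-fold lower, 3.32 to 5.71). Its UMIs lay in 21 members (4.26%) and 66 Plet1 = 0 cells (7.06%). Ccr2, the receptor that guides monocytes and early dendritic cells from blood, had 97.8 against 190 CPM (1.94-fold, 1.78 to 2.12). Rac2, a GTPase of blood cells, was 2.14-fold lower (1.86 to 2.47) and Id3 3.93-fold lower (2.61 to 6.13). The classical monocyte list summed to 103 against 200 CPM, with Ccr2 its leading gene and F13a1 and Vcan at 0 in members.

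Ighm, the gene of the IgM heavy chain, had 35.2 against 71.7 CPM (2.04-fold lower, 1.76 to 2.37), while the B cell genes Pax5 and Ebf1 were at 0 in members. Igha was in the opposite direction with 116 UMIs in 65 members and 58 UMIs in 34 Plet1 = 0 cells. Without cells holding a Plac8, Cxcl9 or Ighm UMI (182 members and 518 Plet1 = 0 cells), 29 genes were higher and 101 lower. Of these 20 and 46 were among the 31 and 69.

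Kept cells were also grouped by their Plet1 count, into 935 at 0, 223 at 1, 135 at 2 to 3, 133 at 4 to 7 and 225 at 8 or more Plet1 UMIs. Of 1900 genes that could be assessed for it (50 CPM or more in the last set), 129 were higher at every step. Of 2039 that could be assessed in the other direction (50 CPM or more in the first set), 159 were lower at every step. These sets share the Plet1 values of the selection, so the order describes the members and is not independent of it. Of the 15 genes with the largest ratios, Cd207, Csf2rb2, Mgl2 and Dcstamp were not higher at every step. Of the 15 with the smallest, Hspa1a, Egr1, Dnajb1, Tnfsf9, Egr3, Rac2, Pycard, Nfkbiz and Ccr2 were not lower at every step.

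The genes most like Plet1 by the ratio of the last set to the first, among those higher at each of the 4 steps, were Scin, Ramp3, Zmynd15, Sdcbp2, Dst, Cish, Il1r2, Cd14, Ccl17 and AA467197. Sdcbp2 had 35.9, 51.3, 63.9, 91.6 and 124 CPM from 0 to 8 or more Plet1 UMIs. Csf2rb had 415, 538, 656, 819 and 954 CPM. Ccl17 had 894, 1229, 1380, 1975 and 2311 CPM.

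Cd207 was not ordered throughout, with 291, 431, 406, 800 and 1034 CPM. The intervals of cells with 1 and with 2 to 3 Plet1 UMIs overlapped, and both lay below the cells with 4 to 7. Scin had 4.41, 6.33, 8.41, 18.8 and 68.1 CPM, so most of it lay in the cells with 8 or more. Havcr1 had 17.2, 17.6, 12.3, 25.6 and 33.4 CPM, with overlapping intervals among the first 3 sets.

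Among genes at 50 CPM or more in the first set, Tlr3 headed those lower at every step, with 77.0, 69.6, 41.5, 29.0 and 14.9 CPM. Hspa1b followed with 447, 356, 189, 139 and 96.6 CPM. Cxcr3, below that limit and so not ranked, was also lower at every step, with 22.7, 19.0, 14.6, 9.67 and 2.17 CPM. Its first value was 10.5-fold its last, against 5.18-fold for Tlr3. Irf8 (1094 to 1380 CPM) and Itgae (219 to 283 CPM) were higher in the last set than in the first.

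**Figure D3:**
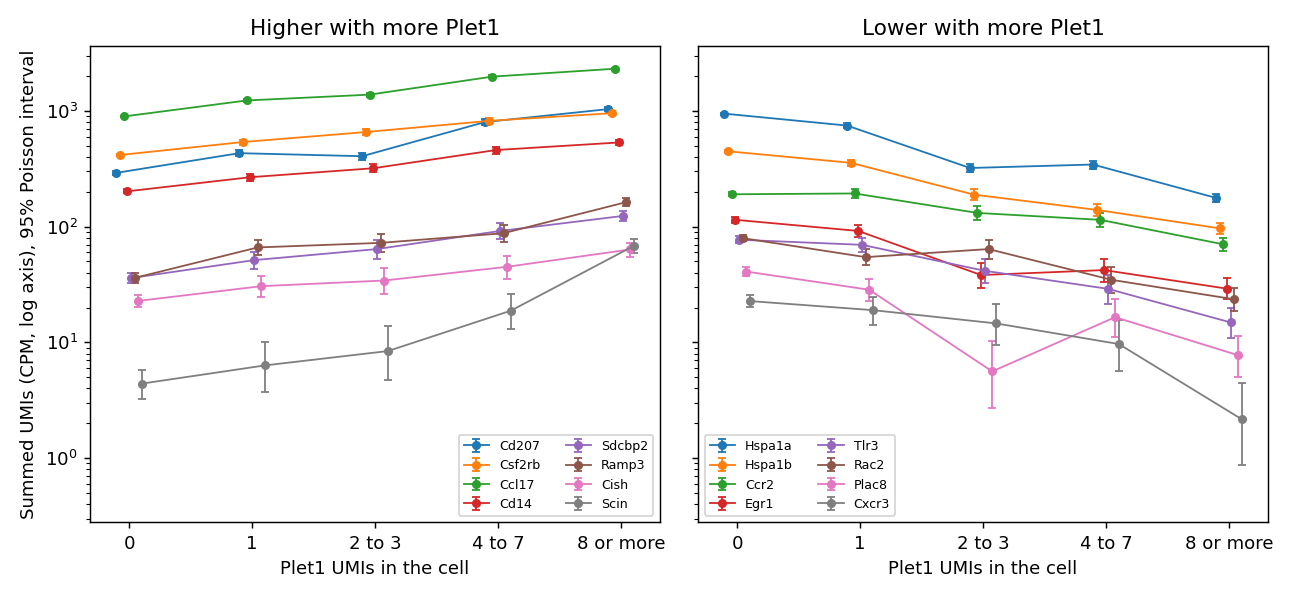
Summed CPM (log axis, error bars 95% Poisson intervals) of 16 genes in cells grouped by Plet1 UMIs (935, 223, 135, 133 and 225 cells from left to right). Sdcbp2 goes from 35.9 to 124 CPM and Scin from 4.41 to 68.1 CPM on the left, and Tlr3 from 77.0 to 14.9 CPM on the right.

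Members were not uniform in Cd207, and a gene's presence was a matter of degree. With Cd207 as the grouping, Plet1 stood at 123 CPM in 592 kept cells without Cd207, at 182, 278 and 263 CPM with 1, 2 to 3 and 4 to 7 Cd207 UMIs, and at 604 CPM in 361 cells with 8 or more. Members were 18.9% (15.8 to 22.3%) of the first and 52.6% (47.3 to 57.9%) of the last of these sets. Even the cells richest in Cd207 were thus nearly evenly divided by the Plet1 limit.

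Within the 493 members, 112 had no Cd207 UMI, 191 had 1 to 7 and 190 had 8 or more. Plet1 itself had 541, 790 and 1077 CPM in these sets, so differences by Cd207 cannot be told apart from differences by Plet1. Csf2rb had 720 (677 to 764), 686 (654 to 719) and 1056 (1018 to 1096) CPM in these sets. Sdcbp2 had 75.5, 79.6 and 132 CPM and Mgl2 had 26.5, 77.2 and 118 CPM. Ccl17 differed less, with 1917, 1825.5 and 2160 CPM, and was therefore high in members with and without Cd207. Irf8 had 1036, 1185 and 1436.5 CPM, and Hspa1a 151, 452 and 132 CPM.

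Variation between members was also measured by the Fano factor (variance over mean of the thinned counts), ranked over 3656 genes found in at least 50 members. Ccl17 was first at 30.6 (20.8 at Plet1 = 0), Hspa1a had rank 3 at 24.997 (24.5) and Cd207 rank 6 at 10.7 (7.88). Ccl22 had 12.2 (11.3) and Il1b 8.53 (10.1). Malat1 had rank 2 and the metallothionein Mt1 rank 4, and the abundant Actb, Cst3 and Tmsb4x had ranks 10, 11 and 12, since this measure is also high for genes with high means.

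Detection per cell gave the same order as the summed counts for 3 of the 4 other markers. After thinning, Cd207 was found in 64.1% of members (59.7 to 68.3%), 52.3% at Plet1 = 1 and 42.5% (39.3 to 45.8%) at Plet1 = 0. Unthinned shares were 77.3%, 67.7% and 56.4%. The share was 1.69% in 2492 cDC2-library cells without Xcr1 or Clec9a, whose median depth before thinning was 12820 UMIs, beside 13294 in members. Sdcbp2 was found in 30.2%, 17.9% and 13.6% (2.8% in the cDC2 library).

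Csf2rb2 was found in 26.9%, 18.3% and 15.5%, but also in 25.2% of the cDC2-library cells. Havcr1 was found in 11.0%, 4.6% and 7.7% (1.6% in the cDC2 library). At least 2 of Cd207, Sdcbp2, Havcr1 and Csf2rb2 were found in 42.0% of members (37.6 to 46.6%), 22.0% at Plet1 = 1 and 17.7% (15.3 to 20.3%) at Plet1 = 0. All 4 were found together in 5 of 490 members and 2 of 910 Plet1 = 0 cells.

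**Figure D4:**
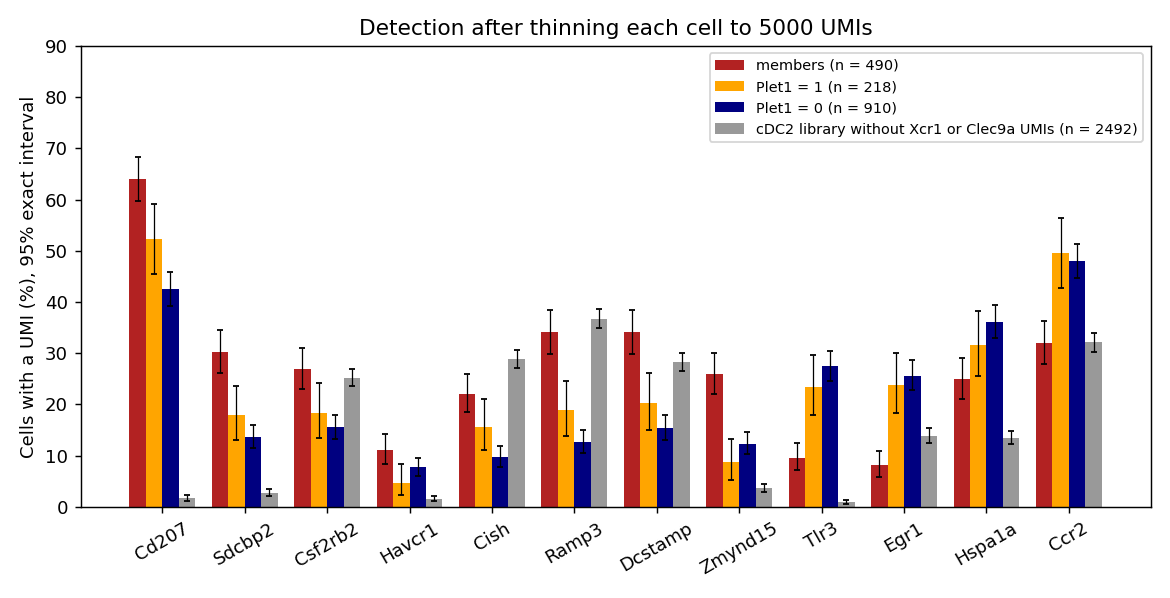
Share of cells with at least 1 UMI of each gene after thinning to 5000 UMIs, with exact 95% intervals, in 490 members, 218 cells at Plet1 = 1, 910 at Plet1 = 0 and 2492 cDC2-library cells without Xcr1 or Clec9a UMIs. Cd207 goes from 64.1% in members to 42.5% at Plet1 = 0, and Tlr3 from 9.6% to 27.5%.

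Plet1 itself was also found in the cDC1-library cells that the selection left out. Kept cells had 285 CPM (277 to 292). The 84 cells with 3 or more UMIs of Fscn1, the actin-bundling protein of mature dendritic cells, had 13.1 CPM (7.32 to 21.6), and 0 of 81 thinned cells held 2 Plet1 UMIs, for which the floor of 3 counts allows a share of up to 3.70% and the exact interval reaches 4.45%. The Ccr7 group is given without cells at the Fscn1 limit, and the Il12b group without cells at the Fscn1 or Ccr7 limit. The cell cycle group holds only cells that met every other condition. The Xcr1 and Clec9a condition was not applied to the Fscn1, Ccr7 and Il12b groups. Some cells of these groups are therefore also in the group without Xcr1 or Clec9a UMIs. Of the 317 cells with 2 or more UMIs of Ccr7, the receptor for migration to lymph nodes, the 233 with fewer than 3 Fscn1 UMIs had 266 CPM (249 to 283). Of the 381 with 2 or more UMIs of Il12b, the p40 chain of IL-12, 239 were below both the Fscn1 and the Ccr7 limit, and in these it was 133 CPM (121 to 146), while Cd207 was 476 CPM there and 477 CPM in kept cells.

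Of the 379 cells with 4 or more cell cycle UMIs, the 268 left out for that condition alone had 188 CPM (176 to 200), and the 202 cells without Xcr1 or Clec9a UMIs 186 CPM (169 to 205). The cDC2 library as a whole had 58.4 CPM (56.0 to 60.9). Its 39 B cell barcodes (5 or more UMIs of Cd79a, Cd79b and Ms4a1), a type that should lack Plet1, had 80.1 CPM (52.8 to 117), but 25 of their 27 UMIs were in 1 barcode. Without it they had 6.23 CPM (0.755 to 22.5), and without its own highest cell the whole library had 57.1 CPM (54.7 to 59.5). A Plet1 UMI was found in 7.69% of the B cell barcodes (3 of 39, 1.62 to 20.9%) and in 16.2% (14.8 to 17.6%) of the library, at median depths of 3797 and 12655 UMIs. These intervals overlap, and the depths differ. After thinning, 20.5% (18.6 to 22.6%) of kept cells held 2 or more Plet1 UMIs. The share was 20.98% (15.8 to 26.9%) in the 224 thinned Ccr7 cells and 19.03% (14.5 to 24.2%) in the 268 cell cycle cells. In the 169 thinned cells without Xcr1 or Clec9a UMIs it was 14.2% (9.32 to 20.4%). Each of these intervals overlaps that of the kept cells. The share was 10.6% (6.97 to 15.2%) in the 236 thinned Il12b cells and 4.67% (3.90 to 5.53%) in the cDC2 library. These groups differ in depth before thinning, from a median of 10856 to 18734.5 UMIs among the left-out groups.

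**Figure D5:**
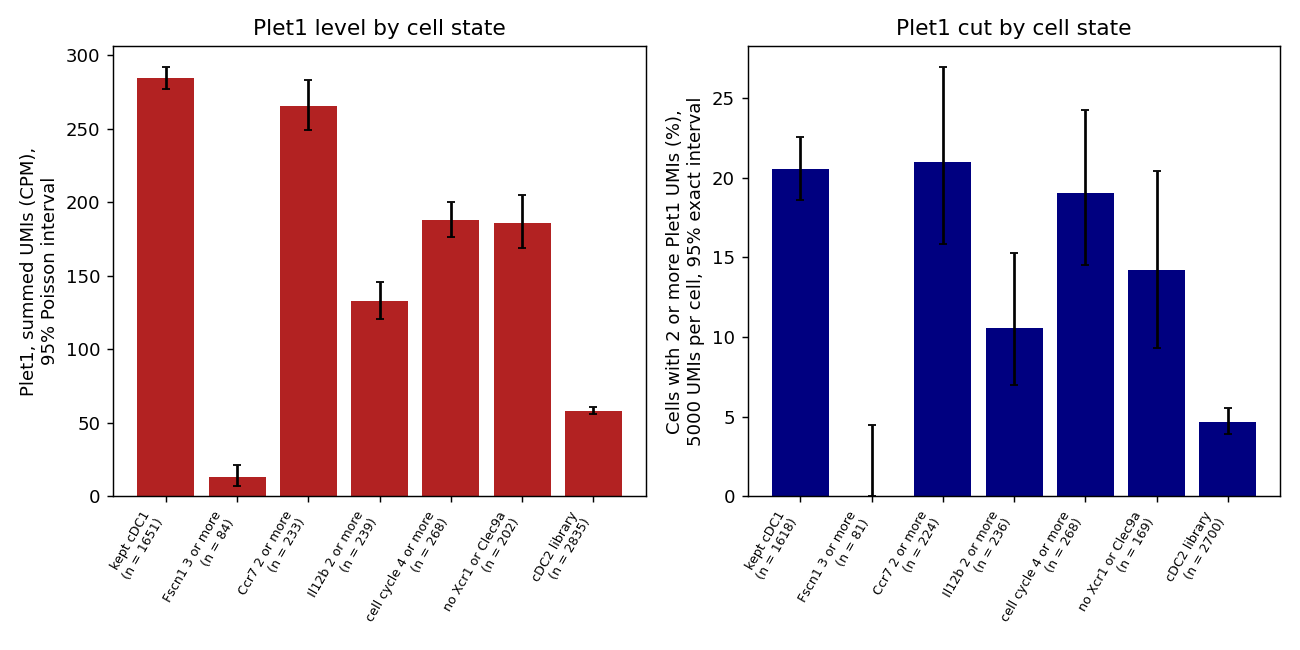
Plet1 in kept cDC1 cells, in cells of the same library left out by a condition and in the cDC2 library. Summed CPM is on the left (95% Poisson intervals). The share of thinned cells with 2 or more Plet1 UMIs is on the right (exact 95% intervals). The Ccr7 group is without cells at the Fscn1 limit, and the Il12b group without cells at the Fscn1 or Ccr7 limit. The cell cycle group was left out for that condition alone. Some cells of the Fscn1, Ccr7 and Il12b groups are also in the group without Xcr1 or Clec9a UMIs. The cells with 3 or more Fscn1 UMIs are lowest at 13.1 CPM and the kept cells highest at 285 CPM. By share, the Ccr7 group (20.98%) and the cell cycle group (19.03%) are close to the kept cells (20.5%).

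The cDC2 library did not enter the selection. The same conditions kept 92 of its cells, of which 3 were Plet1-positive, too few to describe. When Xcr1 and Clec9a were instead required to be at 0, a setting chosen after seeing the data, 44 cells had 2 or more Plet1 UMIs and 992 had 0. Of 6628 measured genes 116 (1.75%) were 2-fold higher and 660 (9.96%) 2-fold lower in the 44 cells, whose 581189 UMIs make each value less precise.

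Of the 31 genes higher in cDC1 members 20 were measured there, and 7 were also higher (22.6% of 31 and 6.03% of 116), namely Ccl17, Cd207, Dst, Rhoc, Sdcbp2, Tcea3 and Zmynd15. The share of 31 counts unmeasured genes as not shared, and 1.75% of all 6628 genes were higher. Ccl17 had 4410 against 1727 CPM (2.55, 2.45 to 2.66), with UMIs in 42 of the 44 cells. Dst had 244 against 103 CPM (2.38, 1.99 to 2.84) in 35 cells. Cd207 had 145 UMIs in only 4 cells, 110 of them in 1 and 32 in another, and Sdcbp2 6 UMIs in 3 cells. Zmynd15 had 6 UMIs in 2 cells, 5 of them in 1, and the interval of its ratio included 1 (2.72, 0.948 to 6.41). The Cd207, Sdcbp2 and Zmynd15 values there rest on few cells. At Plet1 = 0 these genes had 3.02, 2.24 and 3.79 CPM, so they reached 10 CPM only through the 44 cells. Being measured thus already fixed them as 2-fold higher, and their place among the 7 is no support.

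Csf2rb had 606 against 332 CPM in these cells (1.82, 1.63 to 2.03), Csf2rb2 a ratio of 1.29 (0.871 to 1.84) and Cish 1.55 (1.18 to 2.01). Epcam had 127 against 31.1 CPM (4.09, 3.14 to 5.27) in 25 of the 44 cells. Of the 69 lower genes 51 were measured there, and 21 were also lower (30.4% of 69 and 3.18% of 660), among them Hspa1a, Hspa1b, Egr1, Plac8 and Tnf. The share of 69 counts unmeasured genes as not shared, and 9.96% of all 6628 genes were lower. Hspa1a had 49.9 against 336 CPM, 6.73-fold lower (4.68 to 10.1). Tcn2, higher in cDC1 members, was lower there.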

How the data were processed

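Cells of 2 lung libraries (XCR1-positive and CD172a-positive sorts) were measured by 3′ droplet RNA sequencing with the 10x Chromium v3.1 kit, per the labels' protocols. Raw UMI counts, 1 matrix per library, are what the authors deposited. Per the submitters' processing notes these came from Cell Ranger 3.2 on mm10, and per the file headers from software version 3.0.2. Seurat also appears in the notes, with no role, and how barcodes were picked is not stated. Of 31053 feature IDs 30934 matched GENCODE vM21, used for coordinates.

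The filtered cDC1 and cDC2 libraries held 35071861 and 38613693 UMIs, members 6769590 and Plet1 = 0 cells 11350597. No doublet caller was run, and cells above the 95th percentile of UMIs were left out in an alternative. CPM were taken from UMIs added up over the cells of a set, with exact Poisson intervals on sums, exact conditional binomial intervals on ratios and Clopper-Pearson intervals on shares. With 1 library per sort no test was made. The scripts used numpy 2.4.6, scipy 1.17.1 and pandas 2.3.3, and the ratio and interval steps were tested on simulated data. A count of 0 allows up to 3 counts.

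Genes named are the 15 largest and 15 smallest ratios at 50 CPM or more in 1 set and 30 UMIs or more (without predicted genes, histones, antigen receptor segments, mitochondrial genes or ribosomal proteins), up to 3 each way and the 2 most abundant of each of 28 gene lists (612 symbols, 5 not in the feature table), the markers and their families, and the 10 genes most like Plet1 in each direction over the Plet1 sets. Scin, Flrt3, Igha, Retnla, Rhoc, Tead1, Gpr55, Tcn2, Tcea3, Epcam, Batf3 and Naaa, the genes given by detection or variation alone, the 5 motifs, the grouping of members by Cd207 and the removal of single cells were chosen after their values were seen. The members and lists were chosen with earlier results of these data known. Alternatives planned were 12, and 3 more were chosen after seeing the data. They were the removal of heat-shock-high cells, the removal of cells with Plac8, Cxcl9 or Ighm UMIs, and the cDC2-library cells without Xcr1 or Clec9a. Some genes that met these rules are not reported here.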

Additional observations from a re-analysis of the deposited data

How the results depend on the processing

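Results rest on 1 library, so spread between mice is unknown, and low genes are limited by counting. The share of members was 24.5% at 3 or more Plet1 UMIs and 20.5% after thinning. Against 31 higher and 69 lower genes, 54 and 127 were counted at 4 or more Plet1 UMIs, 74 and 227 after thinning (332 members, fewer UMIs), 19 and 23 at 25 CPM, 453 and 634 with no filter beyond 1 UMI, and 157 and 391 at 1.5-fold. Without cells of 10 or more Hspa1a and Hspa1b UMIs the lower count was 37, and Hspa1b had a ratio of 1.08, in the opposite direction. That setting removes cells by these genes. The other settings gave 27 to 46 higher and 51 to 101 lower genes. Of 42 named genes with a 2-fold ratio, 21 kept it in every alternative that gave a value; Cd207, Sdcbp2, Ramp3, Mgl2, Scin and Tlr3 were among them, and Csf2rb (1.77 to 2.18), Csf2rb2 (1.74 to 2.39), Cish (1.94 to 2.50) and Ccl17 (1.60 to 2.45) were not. Plac8, Cxcl9 and Ighm gave no value where cells holding them were removed. No paired analysis was possible because each sort is 1 library and the comparison comes from no test.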
